A study of Mus musculus with 6 samples.

Results

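Cholesterol synthesis, its control by SREBP2 and the uptake and transport of cholesterol were described in mouse liver through 32 genes, chosen by name, of the 54232 genes in the count table. By pathway step, 5 encode enzymes of the mevalonate segment, 2 enzymes of the isoprenoid segment, 11 enzymes of the sterol segment, 6 regulators and 8 proteins of uptake and transport. All 32 were found once each and all 32 passed the filter on low counts. They do not cover every gene of the pathway. The 2 genotypes compared were both 8 weeks old and on normal chow: 3 liver libraries came from Nogo-/- mice (knockout) and 3 from WT littermates (wild type). Nogo is encoded by Rtn4, a reticulon of the endoplasmic reticulum. The labels give neither the part of Rtn4 that was removed nor the sex of the mice, and the loss is not stated to be restricted to a cell type. The study's title places the comparison in work on insulin signalling.

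Liver makes cholesterol from acetyl-CoA. Mevalonate is formed and phosphorylated, turned into isoprenoid diphosphates, condensed to squalene and closed to lanosterol, which is then trimmed to cholesterol by enzymes of the endoplasmic reticulum. When sterols in that membrane run low, SCAP escorts the precursor of SREBP2 to the Golgi, where a pair of proteases release the active factor, and INSIG proteins hold SCAP back when sterols are plentiful. SREBP2 is known to act on genes of the synthesis enzymes in common, usually together with NF-Y and Sp1, while sterol efflux genes such as Abca1 are known targets of the LXR receptors.

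The start regions of 4 members are shown because they carry the contrast met below: Idi1 and Abca1, which fell in knockout, and Hmgcs1 and Mvd, which did not pass the test. The sequences are RefSeq promoter windows on GRCm38.p6, which is the mm10 assembly, read 5′ to 3′ on the strand of the gene and, except for Idi1, ending at the base before the annotated start. Capitals mark TCACNCCAC (a form of the sterol regulatory element), CCAAT (NF-Y) and GGGCGG (Sp1), searched on both strands, so that ATTGG and CCGCCC are the reverse forms. The Idi1 stretch is chr13:8885356-8885500 (plus strand), the first 145 bases of its window, because the 105 before the start overlap an exon in GENCODE. GENCODE begins Idi1 itself at 8885501, upstream of the RefSeq start, so the bases not printed lie within its annotated gene. The others are Hmgcs1 at chr13:119690101-119690350 (plus), Mvd at chr8:122443423-122443672 (minus) and Abca1 at chr4:53159896-53160145 (minus).
Idi1: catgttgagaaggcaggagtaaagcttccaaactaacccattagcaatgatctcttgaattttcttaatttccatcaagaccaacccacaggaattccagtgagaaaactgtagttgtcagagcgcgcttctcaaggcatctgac
Hmgcs1: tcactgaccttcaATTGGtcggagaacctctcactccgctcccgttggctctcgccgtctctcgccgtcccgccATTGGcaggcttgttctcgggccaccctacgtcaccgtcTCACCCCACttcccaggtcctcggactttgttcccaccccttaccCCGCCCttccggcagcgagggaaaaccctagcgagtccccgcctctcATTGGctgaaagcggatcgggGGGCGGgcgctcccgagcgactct
Mvd: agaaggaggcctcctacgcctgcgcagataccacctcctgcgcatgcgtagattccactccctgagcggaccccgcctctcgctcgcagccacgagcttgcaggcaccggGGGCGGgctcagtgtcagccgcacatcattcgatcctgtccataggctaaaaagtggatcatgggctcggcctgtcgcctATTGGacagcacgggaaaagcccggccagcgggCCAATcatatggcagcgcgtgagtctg
Abca1: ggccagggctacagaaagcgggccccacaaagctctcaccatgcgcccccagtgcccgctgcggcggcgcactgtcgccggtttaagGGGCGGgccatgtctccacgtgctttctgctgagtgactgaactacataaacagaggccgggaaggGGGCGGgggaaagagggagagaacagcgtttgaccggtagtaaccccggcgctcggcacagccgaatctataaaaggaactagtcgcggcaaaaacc
RefSeq windows, each from 250 bases before to 50 after a start, were found for 25 of the 32 members. TCACNCCAC occurred in 1 of these 25 genes, Hmgcs1, where it lies 137 to 129 bases before the start, and in 1.24% of all 32851 mouse windows. CCAAT occurred in 19 of the 25 genes and GGGCGG in 22. Some genes have several windows. Counted by window, as the share over all windows is, CCAAT occurred in 19 of 31 (37.4% of all windows) and GGGCGG in 25 of 31 (35.7%). In Idi1 the bases not printed hold ATTGG at 45 to 41 and 14 to 10 bases before the start and CCGCCC at 69 to 64. These are matches of letters, not bound sites, and a window without a match holds only that fact.

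The libraries held 17568223 to 20902369 counts. Rtn4 was at 40.5 to 56.0 CPM (counts relative to the library's total, scaled between libraries by TMM) in wild type and 4.64 to 8.22 CPM in knockout (log2 fold change −3.08 ± 0.26 SE, edgeR adjusted p = 0.00102), so each library carried the Rtn4 level of its label. All 7 hepatocyte markers tested were present. Of these 1 fell and 0 rose at an edgeR adjusted p under 0.05, as 8.29% and 8.76% of all tested genes did. The 2 kidney markers were at or below 3 counts in every library. Markers of exocrine pancreas (3 genes, none called) were present, with sums of 20.34 to 49.15 CPM in wild type and 29.86 to 41.52 CPM in knockout. The libraries differed by genotype in more than Rtn4. Mitochondrially encoded genes made up 6.17% to 6.90% of each wild-type library, but 28.6% of knockout 1, 19.7% of knockout 2 and 11.8% of knockout 4. Of the 6 lymphocyte and the 4 neutrophil markers 5 and 3 were tested, and 4 and 3 rose (8.76% of all tested genes). Their summed levels ran from 2.71 to 4.23 and from 2.52 to 3.30 CPM in wild type against 8.78 to 15.8 and 6.74 to 16.5 CPM in knockout. None of the 6 Kupffer cell and 4 stellate cell markers was called (17.0% of all tested genes), and 1 of 4 cholangiocyte markers fell. Of 5 sinusoidal endothelial markers 3 fell (8.29% of all tested genes), with sums of 104 to 132 CPM against 62.9 to 95.7 CPM. The part of these shifts in the results below was not tested. In whole liver, fewer cells of a type and less RNA per cell cannot be told apart.

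Of the 32 genes, 5 fell in knockout liver and 0 rose. They were the isomerase gene Idi1 and the kinase gene Pmvk of the synthesis pathway, and Npc1, Scarb1 and Abca1, which handle cholesterol in the lysosome and at the cell surface. Rose and fell are kept for genes with an adjusted p under 0.05 by edgeR's quasi-likelihood test over all 13304 tested genes. By the same test 8.29% of all tested genes fell and 8.76% rose, so the share of these 32 genes that changed in either direction, 15.6%, was near the 17.0% over all genes. The count of 0 rises stands beside 1 gene higher at an unadjusted p under 0.05, Soat2, and DESeq2 and limma-voom also called 0 rises (of all genes they called 10.3% and 8.63% higher). Lower estimates were nevertheless common: 27 of 32 log2 fold changes were negative, against 49.1% over all tested genes, and their median was −0.45, against 0.01. The genes were chosen with earlier results of these data known, so this contrast is a description and not a test. At an unadjusted p under 0.05 there were 17 members (34.0% of all tested genes), 16 lower (16.9%) and 1 higher (17.1%). The 3 knockout levels lay wholly below the 3 wild-type levels in 12 members (19.2% of all tested genes) and wholly above in 1 (19.7%).

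**Figure D1:**
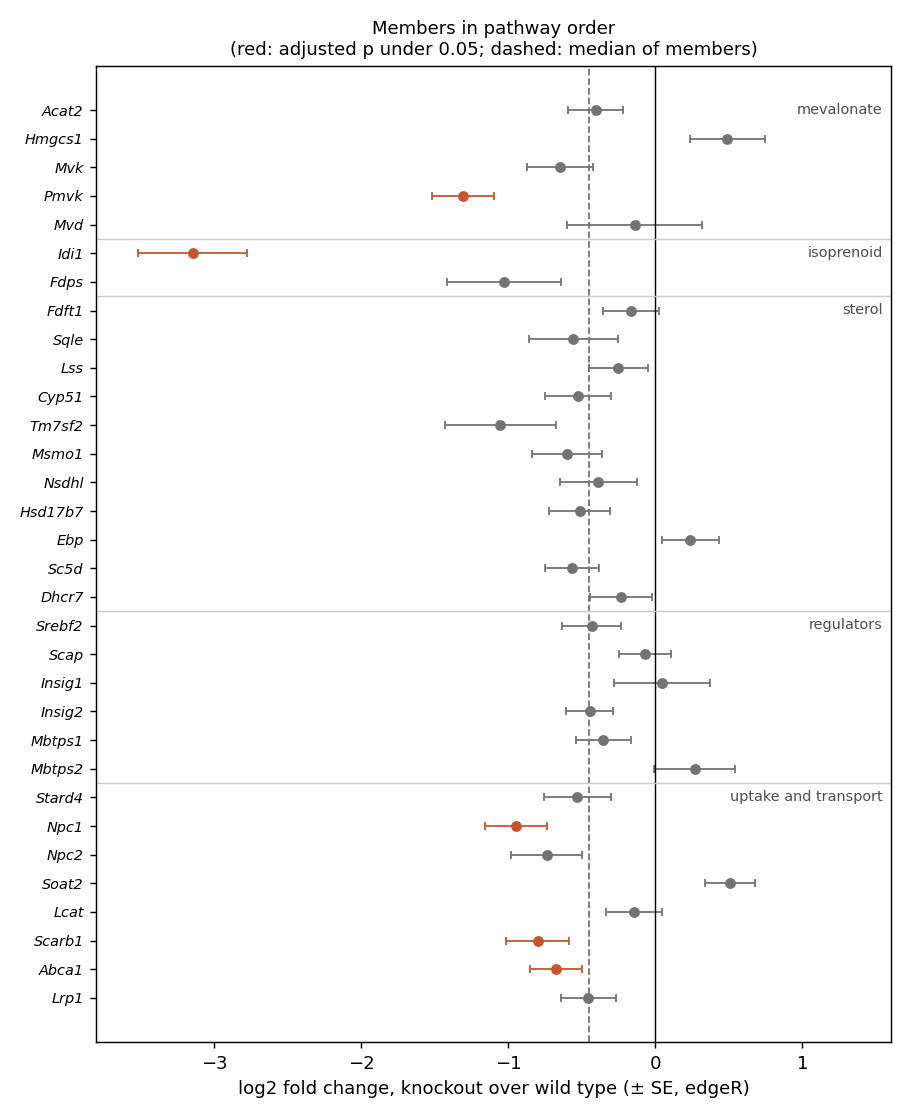
Log2 fold change of each of the 32 genes, knockout over wild type, with its SE (n = 3 libraries a genotype), ordered by pathway step from top to bottom, with the 5 genes that fell in red and the median of the 32 (−0.45) as a dashed line. Idi1 lies far to the left at −3.15, while 5 genes lie to the right of 0.

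The count depended on the libraries used. Without wild type 2, wild type 4, knockout 1 or knockout 2, 2 of the 32 genes fell in each case, where 3.18%, 2.39%, 2.99% and 3.05% of all tested genes did. Without wild type 11, 4 fell (6.36% of all genes). Without knockout 4, 16 fell and 1 rose, where 15.7% of all tested genes fell and 13.7% rose. Knockout 4 also had the smallest mitochondrial share of the knockouts. With knockout 4 alone against wild type, 0 members were called by edgeR (7 at an unadjusted p under 0.05), beside 0.178% of all genes, and the median was −0.28. With the mitochondrial share as a covariate, 0 were called by edgeR (4 at an unadjusted p under 0.05), as were 0 of all genes (0.00%; 1146 at an unadjusted p under 0.05), and the median was −0.27. No other tool was run in those fits. With the covariate Rtn4 was not called either, and the mitochondrial shares of the genotypes do not overlap. A call lost in that fit therefore cannot be read as a trait of a single gene.

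Among the mevalonate enzymes 1 of 5 fell, Pmvk, where 8.29% of all tested genes fell. Pmvk encodes phosphomevalonate kinase, which adds a further phosphate to mevalonate, and lies on chromosome 3 from 89454541 to 89469013. Wild type 2, 4 and 11 had 30.9, 49.5 and 45.4 CPM, and knockout 1, 2 and 4 had 17.5, 14.98 and 18.4 CPM. In all that follows the libraries are given in this order. All knockout levels lay below all wild-type levels, and the knockouts were close to each other. Mean CPM was 41.9 ± 9.80 for wild type and 17.0 ± 1.76 for knockout (SD over 3 libraries), and the log2 fold change was −1.31 ± 0.21 (SE, edgeR adjusted p = 0.00628), or 40.5% of wild type. With each library left out in turn it passed 6 of 6 times (highest adjusted p 0.0296). With knockout 4 alone the estimate was −1.19. With the mitochondrial covariate it was −1.24 and did not pass (edgeR adjusted p = 0.452), as no tested gene did in that fit.

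The other 4 mevalonate enzymes did not pass and did not share a direction. Hmgcs1, which encodes the cytosolic HMG-CoA synthase, was at 89.0, 108 and 148 CPM in wild type and at 218, 135 and 132 CPM in knockout. Its groups overlapped, with knockout 1 highest of all, and the estimate was 0.49 ± 0.25 (edgeR adjusted p = 0.201), or −0.13 with the mitochondrial covariate. Mvk, mevalonate kinase, was at 13.8, 17.4 and 22.1 CPM against 11.4, 9.34 and 13.3 CPM. Its groups did not overlap, but it missed the threshold (−0.65 ± 0.22, adjusted p = 0.0703). Mvd, the decarboxylase that ends the segment, spread widely in both genotypes, at 5.94, 11.5 and 21.5 CPM in wild type and 12.0, 5.75 and 17.7 CPM in knockout. With an estimate of −0.14 ± 0.46, a small or moderate change of Mvd in either direction was not detectable at this spread. Acat2, the cytosolic thiolase that starts the pathway, had an estimate of −0.40 ± 0.19 (adjusted p = 0.157). The Acat2 value is uncertain, because 39.1% of the 50-base words of its transcripts also occur in Acat3.

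The isoprenoid step held the largest difference among the 32 genes. Idi1 encodes isopentenyl-diphosphate isomerase, which supplies the allylic starter for every longer isoprenoid, and lies on chromosome 13 from 8885501 to 8892451. The wild-type libraries held 578, 877 and 456 of its counts, the knockouts 39, 49 and 92. In CPM these were 27.4, 46.8 and 21.2 against 2.58, 2.63 and 5.54. The highest knockout stood well below the lowest wild type. The log2 fold change was −3.15 ± 0.37 (SE, edgeR adjusted p = 0.00282), leaving 11.3% of the wild-type level, and 20 of the 13304 tested genes had a lower estimate. With each library left out in turn it passed 6 of 6 times (−3.62 to −2.77, highest adjusted p 0.023). With knockout 4 alone the estimate was −2.52. With the mitochondrial covariate it was −2.27 and did not pass (edgeR adjusted p = 0.389), as no tested gene did in that fit.

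Reads of Idi1 can be shared with other genes, since 17.7% of its 50-base words occur in Gm13502 and 5.09% in Gm35570. These genes had 12, 24 and 17 and 23, 47 and 10 counts in wild type. In knockout they had 5, 0 and 6 and 1, 2 and 12 counts. Both held few counts beside Idi1 in wild type, but in knockout 4 the 12 of Gm35570 stood beside 92 of Idi1. Their estimates were negative, as for Idi1, and neither passed the test (−1.94 ± 0.74 and −2.14 ± 0.82, edgeR adjusted p = 0.092 and 0.0938). The part of shared reads in the Idi1 value was not tested. An antisense gene that overlaps 9.21% of the exons of Idi1, Gm48574, had 0 counts in every library.

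Fdps, farnesyl diphosphate synthase, was at 3.23, 4.53 and 5.99 CPM in wild type and at 1.85, 1.34 and 3.55 CPM in knockout. The groups overlapped through knockout 4, and the estimate of −1.03 ± 0.39 did not pass (edgeR adjusted p = 0.0921). It was −0.32 with the mitochondrial covariate, −0.37 with knockout 4 alone and −1.54 without knockout 4. The level is uncertain, as 26.2% of its words are shared with other genes. Gm3571, which shares 12.1% of the words of Fdps, had more counts than Fdps itself, at 284, 375 and 265 against 192, 104 and 202 (−0.59 ± 0.31, adjusted p = 0.207). Another such gene, Gm5873 (5.525% of the words), fell from 76, 74 and 71 counts to 16, 13 and 38 (−1.42 ± 0.41, adjusted p = 0.0401).

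**Figure D2:**
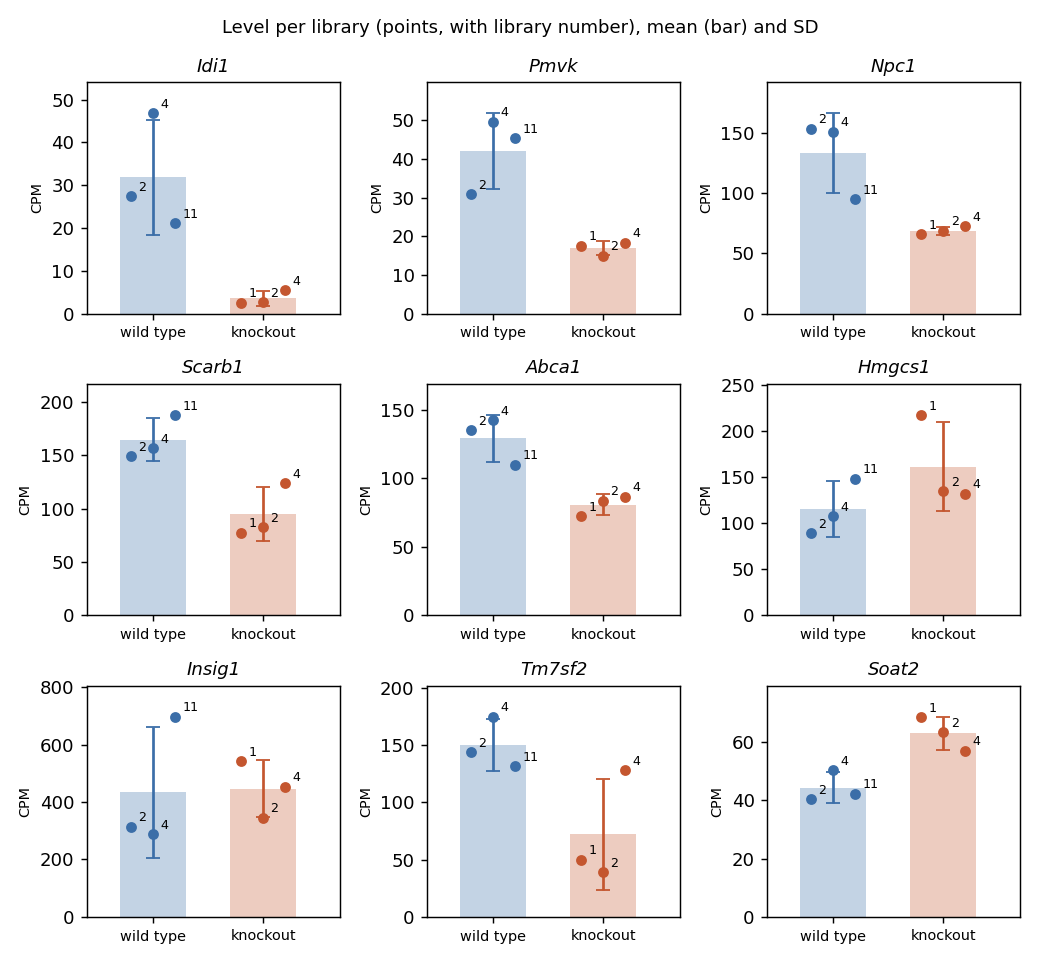
CPM of 9 of the genes in each library (points with the library's number), with the mean (bar) and SD (line) of 3 libraries a genotype. For Idi1, Pmvk, Npc1, Scarb1 and Abca1 every knockout point is below every wild-type point. Hmgcs1 and Insig1 overlap, Tm7sf2 has knockout 4 near wild type, and Soat2 is higher in each knockout without passing the test.

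None of the 11 sterol enzymes, from squalene synthase to the last reductase, was called by edgeR. At an unadjusted p under 0.05, 5 were lower and 0 higher (16.9% and 17.1% of all tested genes). DESeq2 and limma-voom each called 2 of the 11 lower, Tm7sf2 and Sc5d (10.3% and 9.46% of all genes). The estimates ran from −1.05 to 0.24 with a median of −0.51, and 10 of 11 were negative. Without knockout 4, edgeR called 5 of 11 lower (15.7% of all tested genes): Sqle, Cyp51, Tm7sf2, Msmo1 and Sc5d.

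Tm7sf2, a sterol reductase of the endoplasmic reticulum and nuclear envelope, was at 144, 175 and 132 CPM in wild type and at 50.1, 38.9 and 128 CPM in knockout. Knockout 1 and 2 were far below wild type and knockout 4 just under the lowest wild type. The estimate was −1.05 ± 0.38 (edgeR adjusted p = 0.0772). It was −0.10 with the mitochondrial covariate, −0.23 with knockout 4 alone and −1.77 without knockout 4. Of the 50-base words of Tm7sf2, 9.87% are shared with Vps51, which had 9 to 24 counts. Sc5d, the desaturase of the late pathway, was the most abundant of these enzymes per length in wild type, at 115 CPM per kb of exon against 83.8 for Ebp, but not in knockout, where it was at 77.7 and Ebp at 98.9. Its levels were 491, 611 and 579 CPM against 421, 359 and 355 CPM. The groups did not overlap and the estimate of −0.57 ± 0.18 narrowly missed (adjusted p = 0.056). Hsd17b7, a ketosteroid reductase of the demethylation complex, did not overlap either (38.3 to 43.7 against 21.3 to 35.1 CPM; −0.52 ± 0.20, adjusted p = 0.105).

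For the epoxidase Sqle the levels were 29.5, 48.5 and 52.5 CPM in wild type and 26.6, 19.2 and 43.0 CPM in knockout (−0.56 ± 0.30, edgeR adjusted p = 0.219). The demethylase Cyp51 was at 106, 136 and 114 CPM against 75.3, 61.9 and 110 CPM (−0.52 ± 0.23, adjusted p = 0.132), and 3.76% of its exon bases overlap Akap9 on the opposite strand. The methyl oxidase Msmo1 was at 71.4, 81.5 and 117 CPM against 53.6, 49.0 and 75.5 CPM (−0.60 ± 0.24, adjusted p = 0.103). In these 3 genes knockout 4 was the highest knockout and reached the wild-type range. With knockout 4 alone the estimates of Sqle, Cyp51 and Msmo1 were −0.02, −0.11 and −0.25, and with the mitochondrial covariate −0.03, −0.11 and −0.23. Fdft1 (squalene synthase), Lss (which closes the rings), Dhcr7 (a late reductase) and Nsdhl (a sterol dehydrogenase) had estimates of −0.16 ± 0.19, −0.25 ± 0.20, −0.23 ± 0.21 and −0.39 ± 0.26. Ebp, a sterol isomerase, was the sterol enzyme with a positive estimate (0.24 ± 0.19, adjusted p = 0.414). Over these 5 genes the groups overlapped throughout. The Fdft1 value is uncertain, because 18.3% of its exon bases overlap Ctsb on the opposite strand, the strand setting is not known, and Ctsb had 9455 to 12287 counts in wild type against 1878 to 2684 for Fdft1. Of its words, 9.38% occur in Gm6781, which had at most 3 counts.

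**Figure D3:**
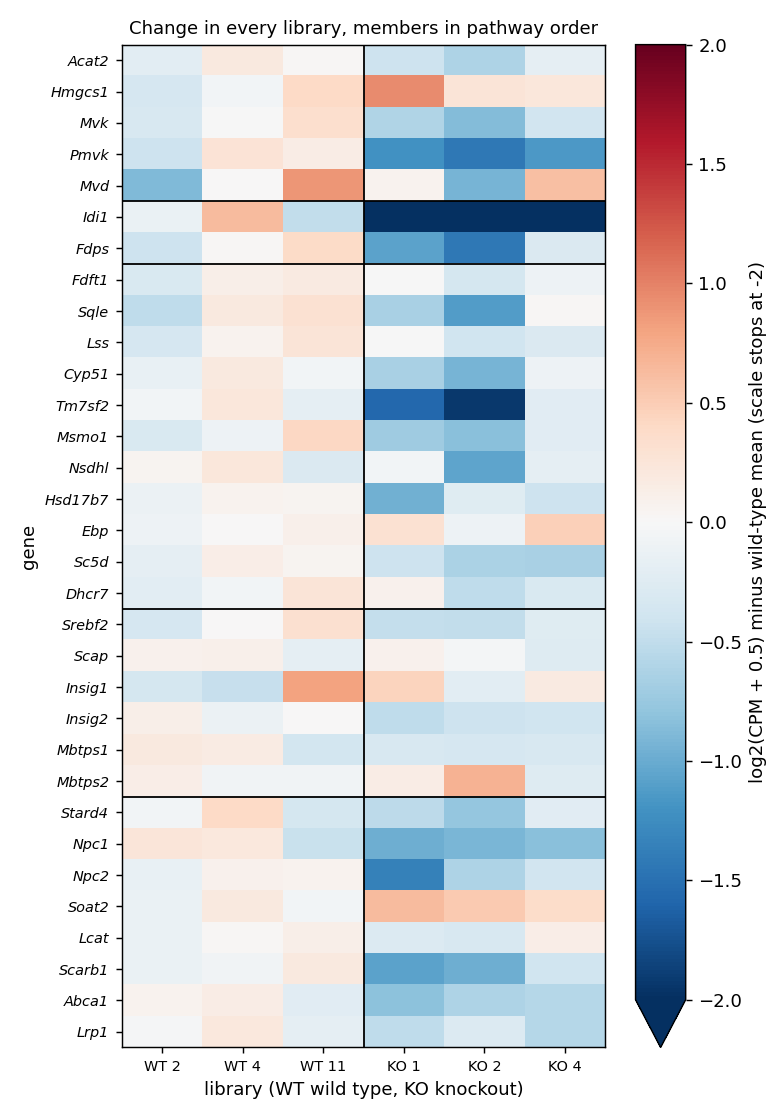
Change of each of the 32 genes (rows, in pathway order) in each of the 6 libraries (columns), as log2(CPM + 0.5) minus the wild-type mean, blue lower and red higher, with the scale ending at −2. Idi1 is beyond the scale in the 3 knockouts. Knockout 4 is paler than knockout 2 in most rows, and wild type 11 is redder than the other wild types for Mvd and Insig1.

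None of the 6 regulators was called by edgeR, DESeq2 or limma-voom, and their estimates ran from −0.45 to 0.27. At an unadjusted p under 0.05 by edgeR, 1 was lower and 0 higher (16.9% and 17.1% of all tested genes). Srebf2, the gene of SREBP2, was at 31.7, 40.5 and 50.2 CPM in wild type and 28.7, 28.2 and 33.7 CPM in knockout. The ranges overlapped through wild type 2 and knockout 4, and the estimate was −0.43 ± 0.20 (edgeR adjusted p = 0.153). Scap, the escort, had an estimate of −0.07 ± 0.18. The protease genes Mbtps1 and Mbtps2 had −0.35 ± 0.19 and 0.27 ± 0.28, and the Mbtps2 value is uncertain because 27.6% of its words are shared with Yy2, which had 0 counts in every library.

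Insig2, 1 of the pair of INSIG genes, was at 92.1, 78.4 and 85.4 CPM in wild type and 59.5, 63.9 and 64.4 CPM in knockout. Its groups did not overlap, and it missed the threshold (−0.45 ± 0.16, edgeR adjusted p = 0.0808), although it fell without knockout 4. Insig1, itself a feedback target of SREBP2, was at 314, 289 and 697 CPM in wild type and 542, 346 and 453 CPM in knockout. Wild type 11 was the highest library and the knockouts lay between it and the other wild types (0.04 ± 0.33, adjusted p = 0.937). Wild type 11 was 2.46 times the mean of wild type 2 and 4 for Mvd, 2.32 times for Insig1 and 1.51 times for Hmgcs1, but 0.571 times for Idi1. These 4 were chosen after their values were seen, and the median member varied 1.40-fold between the highest and lowest wild type, against 1.33-fold over all tested genes.

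Of the 8 genes of uptake and transport, 3 fell and 0 rose by edgeR (8.29% and 8.76% of all tested genes). At an unadjusted p under 0.05, 6 were lower and 1 was higher (16.9% and 17.1% of all tested genes). Npc1 encodes the membrane protein that passes cholesterol out of the lysosome and lies on chromosome 18 (minus strand) from 12189692 to 12236400. It was at 153, 151 and 94.9 CPM in wild type and 65.7, 68.7 and 72.3 CPM in knockout. The knockouts lay close together below the lowest wild type, and the log2 fold change was −0.95 ± 0.21 (SE, n = 3 each, edgeR adjusted p = 0.016), or 51.8% of wild type. Of its exon bases, 4.5% overlap Rmc1 on the opposite strand. The counts of Rmc1 were not read and the strand setting is not known, so its part in the Npc1 value was not tested. Its luminal partner Npc2 was at 67.9, 80.4 and 79.3 CPM against 29.3, 49.0 and 58.1 CPM. Npc2 did not overlap between genotypes but missed the threshold (−0.74 ± 0.24, adjusted p = 0.0573), and DESeq2 and limma-voom called it lower. With the mitochondrial covariate the estimate of Npc2 was 0.0084.

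Scarb1, the HDL receptor SR-BI, lies on chromosome 5 from 125277087 to 125341094. It was at 149, 157 and 188 CPM in wild type and 77.5, 82.7 and 124 CPM in knockout. Each knockout was below each wild type, with knockout 4 nearest (−0.80 ± 0.22, edgeR adjusted p = 0.0316). Abca1, which moves cholesterol to apolipoprotein A-I and lies on chromosome 4 from 53030787 to 53159895, was at 135, 142 and 110 CPM against 72.4, 83.6 and 86.3 CPM (−0.68 ± 0.18, adjusted p = 0.0287). The calls of Npc1, Scarb1 and Abca1 were lost without wild type 2, wild type 4, knockout 1 or knockout 2 (adjusted p from 0.0542 to 0.128), and that of Scarb1 also without wild type 11 (0.0831). Without knockout 4 all 3 calls were kept (adjusted p = 0.0103, 0.00201 and 0.0124). With each of the 6 libraries left out in turn, the estimates stayed between −1.15 and −0.61. None of the 3 was called once the mitochondrial covariate entered, as no tested gene was, and Scarb1 was there at −0.29. With knockout 4 alone Scarb1 was at −0.41. The replicate block ended the calls of Scarb1 (adjusted p = 0.155) and Abca1 (0.0801).

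The remaining 4 transport genes did not pass. Lrp1, a large endocytic receptor for lipoprotein remnants, was at 551, 645 and 491 CPM in wild type and 392, 462 and 376 CPM in knockout, without overlap (−0.45 ± 0.19, edgeR adjusted p = 0.12). Stard4, a soluble sterol carrier, was at 142, 195 and 116 CPM against 102, 86.0 and 125 CPM (−0.53 ± 0.23, adjusted p = 0.131). Soat2, which esterifies cholesterol in the endoplasmic reticulum, was the member with the highest estimate. It was at 40.2, 50.2 and 42.3 CPM in wild type and at 68.5, 63.2 and 56.9 CPM in knockout. All knockouts were above all wild types, but it missed the threshold (0.51 ± 0.17, adjusted p = 0.0657), and it rose without knockout 4. Lcat, the secreted enzyme that esterifies cholesterol on HDL, overlapped (−0.14 ± 0.19, adjusted p = 0.63).

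Per length, Lcat was the most abundant of the 32 genes, at 314 CPM per kb of exon in wild type and 284 in knockout, followed in wild type by Insig1 at 140. Mbtps2 was lowest in wild type at 0.581, below Fdps at 1.09. Idi1 stood at 9.07 CPM per kb in wild type, near Hsd17b7 at 8.18 and Sqle at 7.85, and at 1.02 in knockout, where Mbtps2 (0.699) and Fdps were lower. Mvd and Fdps, which act just before and just after Idi1 in the pathway, were at 6.98 and 1.09 CPM per kb in wild type and at 6.35 and 0.534 in knockout. Lengths are those of all annotated exons joined, so an unused exon lowers the value.

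**Figure D4:**
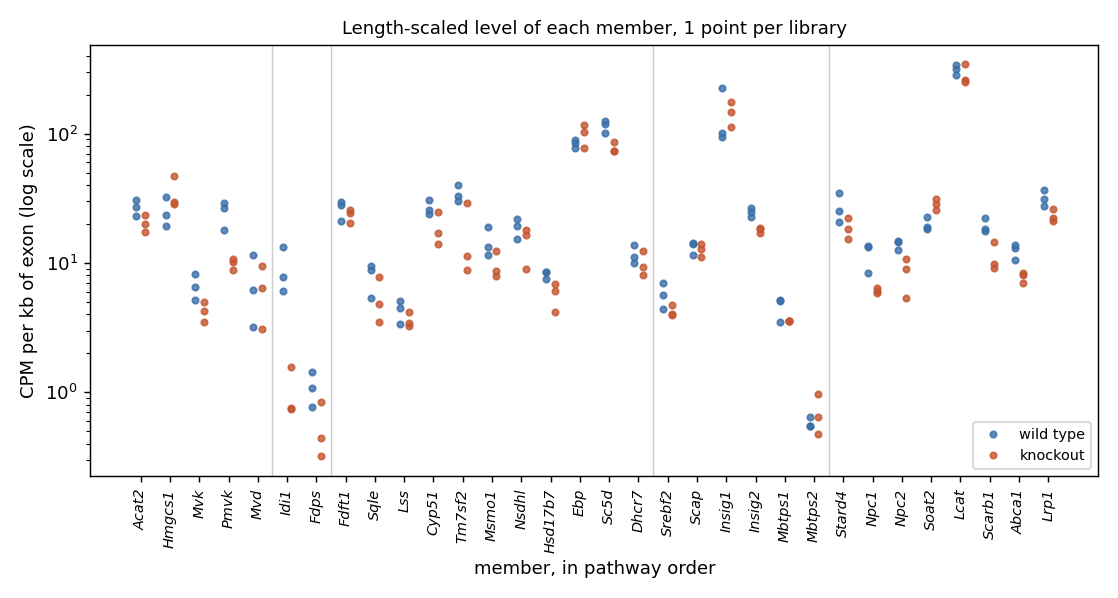
CPM per kb of exon on a log axis, 1 point a library, for the 32 genes in pathway order, wild type in blue and knockout in orange-red. Idi1 drops from a middle position among the enzymes in wild type to a level beside Fdps and Mbtps2 in knockout.

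The members' median change from the wild-type mean, as log2(CPM + 0.5), was −0.14, 0.09 and 0.06 for the wild-type libraries. For knockout 1, 2 and 4 it was −0.49, −0.62 and −0.26. Over all tested genes it lay between −0.01 and 0.02 in each library. Knockout 2 was the lowest knockout for 19 of the 32 genes, knockout 1 for 7 and knockout 4 for 6. The median of the 18 synthesis enzymes was −0.50, −0.85 and −0.22 in knockout 1, 2 and 4, and that of the 8 transport genes −0.68, −0.62 and −0.39. Knockout 1 had the highest mitochondrial share and knockout 2 the lowest median of the synthesis enzymes, while knockout 4 was nearest to wild type in both.

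**Figure D5:**
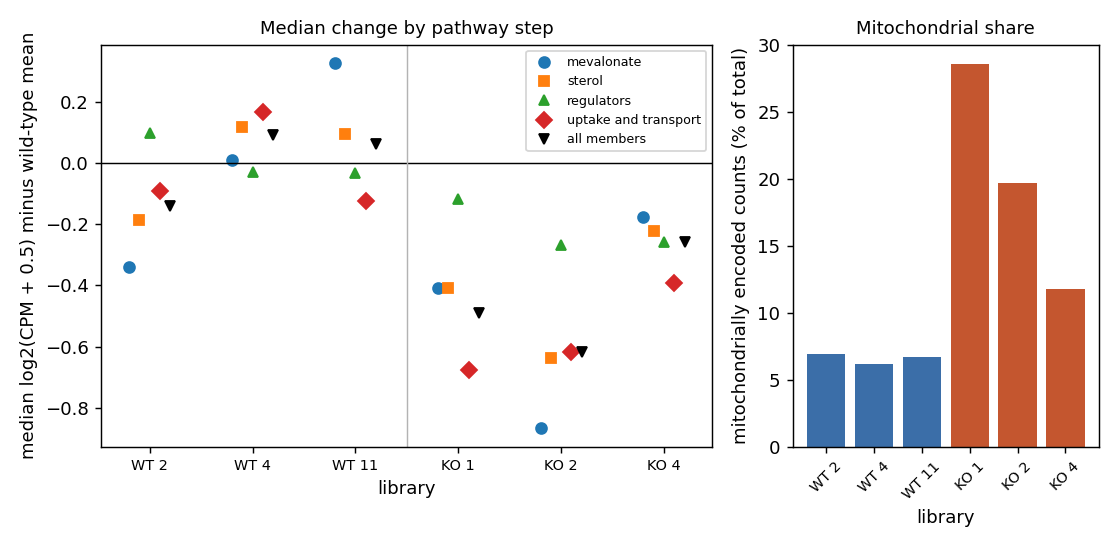
Left, the median change of the genes of each step and of all 32 genes in each library, as log2(CPM + 0.5) minus the wild-type mean, with the 2-gene isoprenoid step left out. Right, the percent of counts from mitochondrially encoded genes (bars from 0). The median of all 32 genes is −0.49, −0.62 and −0.26 in knockout 1, 2 and 4, whose mitochondrial shares are 28.6%, 19.7% and 11.8%.

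Beyond the 32 genes, 3 further lists of the pathway were read in the same fit. Over all tested genes 17.0% were called, with 8.29% lower and 8.76% higher. Of 11 genes of the isoprenoid branches 1 fell and 0 rose (9.09% called). It was Pggt1b, a subunit of a geranylgeranyl transferase (6.45 ± 1.59 to 3.27 ± 0.83 CPM, SD; −0.97 ± 0.29 SE, edgeR adjusted p = 0.045). Nus1, the Nogo-B receptor and a subunit of the dolichol-making transferase, was at 48.7, 52.1 and 43.6 CPM against 35.5, 43.8 and 37.1 CPM and did not pass (−0.31 ± 0.17, edgeR adjusted p = 0.219). It was singled out after its values were seen. Of 13 genes of sterol sensing and turnover 1 fell and 0 rose (7.69% called). It was Rnf139, a ubiquitin ligase of the endoplasmic reticulum (22.6 ± 2.64 to 11.5 ± 3.41 CPM; −0.97 ± 0.23, edgeR adjusted p = 0.0198).

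Of 20 sterol carriers and receptors 2 fell and 1 rose, a share near the 17.0% called over all tested genes. Lipa, the lysosomal acid lipase that frees cholesterol from its esters, fell from 182 ± 22.0 to 107 ± 6.46 CPM (−0.76 ± 0.17, edgeR adjusted p = 0.0169). Scarb2, a lysosomal membrane protein, fell from 173 ± 29.3 to 88.3 ± 25.9 CPM (−0.97 ± 0.24, adjusted p = 0.0246). Gramd1a, which carries cholesterol from the plasma membrane to the endoplasmic reticulum, rose from 10.3 ± 0.77 to 18.6 ± 4.83 CPM (0.84 ± 0.22, adjusted p = 0.0261). The medians of the 3 lists were −0.25, −0.10 and −0.20, against −0.45 for the 32 genes. Each of the 5 genes called in these lists was called in 2 or 3 of the 6 fits that left out 1 library.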

How the data were processed

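Liver RNA was measured in 6 libraries built with an mRNA-Seq preparation kit (SMARTER), as the labels' protocols record. The deposited values are raw counts per gene, whole numbers in 1 column a library. Per the submitters' processing notes, mm10 was used. Which aligner, counting program, annotation and strand setting were used, and how reads matching several genes were treated, is not given in the sources used here. Every row of the 54232 carried a gene name.

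Counts were analysed with edgeR 4.0.16 in R 4.3.3: filterByExpr (13304 genes kept), TMM scaling, quasi-likelihood F test without covariates, two-sided, Benjamini-Hochberg adjustment over all tested genes, threshold 0.05. The SE was taken from the fold change and its F statistic (size over root F). Fold changes are knockout over wild type. Each library is named by the number in its label. Libraries of 1 genotype differed by more than counting noise (chi-square over its degrees of freedom 21.0 to 171), so each counted as 1 replicate. Nothing read here ties each library to its own mouse, so the spread behind the p-values may be technical. A floor of 3 counts equals 0.139 to 0.199 CPM and covers counting error only. DESeq2 1.42.0 and limma 3.58.1 (voom) were alternatives, with other scalings and filters, libraries left out, a replicate block, mitochondrial genes removed and the mitochondrial share as covariate. Coordinates, exon lengths and shared 50-base words came from GENCODE M21 (54079 identifiers matched). In a test on simulated counts with 13090 genes, 33.7% of 2-fold and 96.0% of 4-fold changes were recovered, and 9 of 138 calls were false. Only 98 and 100 genes were changed there, while 2268 were called in the data, so these rates need not hold here. The members and lists were chosen with earlier results of these data known. All members were to be named, with Rtn4 as a label check and the called genes of 3 further lists (up to 4 each, by smallest p).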

Additional observations from a re-analysis of the deposited data

How the results depend on the processing

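The 5 falls among the 32 genes became 11 with scaling by library totals, 8 with DESeq2, 8 with limma-voom, 12 with no low-count filter (of all genes 11.8%, 10.3%, 9.46% and 7.66% fell), and were 0 when the mitochondrial covariate entered and 0 for knockout 4 alone. RLE scaling, a filter of 1 CPM in 3 libraries and removal of mitochondrial genes each left 5 (of all genes 8.35%, 8.57% and 8.22% fell). The replicate block left 4 (6.53%). The fit with no low-count filter tested 23915 genes, and its SEs differed from those of the main fit. They were 0.24 against 0.46 for Mvd and 0.22 against 0.19 for Acat2, so its 12 falls are not directly comparable with the 5. With 1 library left out the count of falls ran from 2 to 16, that of rises from 0 to 1, and that of all called genes from 630 to 4046. All genes called numbered 2268, or 0 with the mitochondrial covariate (1146 at an unadjusted p under 0.05, edgeR) and 25 with knockout 4 alone, where knockout is assumed to vary like wild type. Library totals moved the median of all tested genes to −0.16 and the split of calls from 1165 higher and 1103 lower to 690 and 1566. The members' median stayed between −0.62 and −0.27 in every setting run. Causes of these moves were not tested.

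Of 512 member estimates under the alternatives 19 changed sign, all in genes that edgeR did not call in the comparison of all 6 libraries. With the mitochondrial covariate these were Hmgcs1 (−0.13), Mvd (0.28), Insig1 (−0.19), Mbtps2 (−0.057), Npc2 (0.0084) and Lcat (0.17). With knockout 4 alone they were Mvd (0.45), Mbtps2 (−0.29) and Lcat (0.13), with the replicate block Mvd (0.30), with library totals Insig1 (−0.14) and with no filter Insig1 (−0.0028). With 1 library left out, Mvd ran from −0.57 to 0.43, Insig1 from −0.19 to 0.56, Mbtps2 from −0.051 to 0.47 and Scap from −0.17 to 0.0061.

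The numbers 2 and 4 occur in both genotypes. Over all tested genes the deviations of same-numbered libraries from their genotype means correlated at −0.06 and 0.07. Pairs with unlike numbers ran from −0.11 to 0.08. Correlations of so few libraries cannot decide whether same-numbered samples share more than a number, such as a litter. The replicate block over the 4 libraries numbered 2 and 4 called 1588 genes (11.9% of those tested) and 4 members, Idi1, Pmvk, Npc1 and Tm7sf2.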
